A study of Mus musculus with 8 samples.

Results

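The renin-angiotensin and macula densa genes described here were 9 genes listed by symbol: Agt, Ace, Agtr1a, Agtr1b, Enpep, Mme, Nos1, Ptgs2 and Ptges. The genes were listed by function, with earlier results of these data known, so counts over them are a description. A gene was counted as measured when a probe set of the array was annotated with its symbol alone, which held for 8 of the 9 and gave 1 probe set each, out of 19938 genes measured in the same way. Agtr1b and the renin gene Ren1 had no such probe set and are not analysed here.

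The arrays carried total RNA from dissected renal cortex of male C57Bl6J mice aged 10 weeks. The samples were 4 SPAK KO mice, which lack the kinase encoded by Stk39, and 4 littermate wild-type (WT) mice, and all ate a diet with 0.32% NaCl and 1% KCl. The design text asks which genes might act together to limit the loss of salt by the kidney when SPAK is missing. The labels name the strain and the disrupted gene but not the part of the gene that was removed.

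Angiotensinogen is cleaved by renin to angiotensin I, which angiotensin-converting enzyme turns into angiotensin II, a peptide that constricts vessels, raises sodium reabsorption in the tubule and stimulates aldosterone secretion. Membrane peptidases of the kidney, among them aminopeptidase A and neprilysin, break these peptides down or reroute them. The macula densa, a plaque of cells at the end of the thick ascending limb, senses the salt in tubular fluid and signals to the renin cells and the afferent arteriole, in part through nitric oxide and prostaglandin E2.

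The deposited log2 RMA values had array medians of 6.09 to 6.12 in SPAK KO and 6.13 to 6.19 in WT. Stk39 averaged 7.02 on the SPAK KO arrays, against 8.34 ± 0.22 in WT (SD, n = 3), and fell by 1.38 on the log2 scale over 8 arrays (limma adjusted p = 5.8e-04). Some arrays of a group differed far less than others. Counting genes brighter than 8 that were more than 0.4 apart, each of the 6 pairs of SPAK KO arrays had 1 to 10, WT 2 with WT 3 had 3, and the other 5 WT pairs had 119 to 228. WT means and SD therefore count WT 2 and WT 3 as 1 sample (n = 3), SPAK KO levels carry no SD, and p-values over 8 arrays measure a spread that may in part be technical. Differences below are SPAK KO minus WT on the log2 scale with the moderated standard error (SE) over 8 arrays, and adjusted p-values are from limma, over all 19938 genes. In whole cortex, fewer cells of a type and less RNA per cell cannot be told apart.

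Among the 8 measured genes, Mme rose in SPAK KO cortex and the other 7 did not pass the test. The 1 higher call among 8 stands beside 1.39% of all genes called higher, and the 0 lower calls beside 0.682% called lower. The 8 differences ran from −0.05 to 0.47 with a median of 0.08, against −0.01 over all genes, and 7 of 8 lay above 0, against 45.8% of all genes. The groups did not overlap for Mme and Enpep, both higher in SPAK KO, or 2 of 8, where 6.90% of all genes had every SPAK KO array above every WT array; 0 of 8 had every SPAK KO array below, where 5.71% of all genes did.

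**Figure D1:**
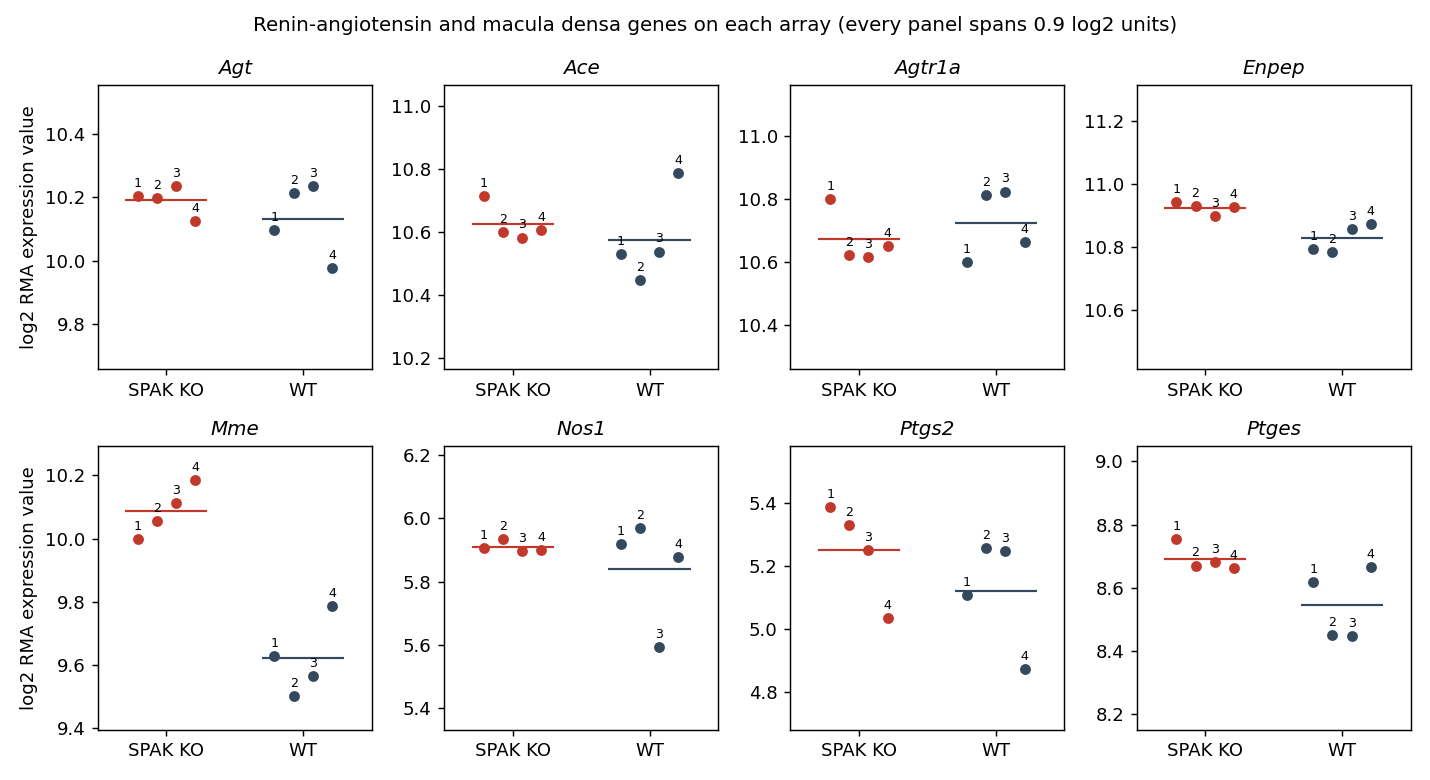
Log2 RMA expression values (vertical axis) of the 8 measured genes on each array, with SPAK KO left of WT in every panel, the replicate number above each point and a bar at the mean of the 4 arrays. Mme lies between 10.00 and 10.19 on the SPAK KO arrays and between 9.50 and 9.79 on the WT arrays, whereas Ace, Agt, Agtr1a, Nos1, Ptgs2 and Ptges overlap between the groups.

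Of the genes that make and receive angiotensin II, Agt encodes the precursor protein. Agt (probe set 10582658) read 10.20, 10.20, 10.24 and 10.13 on SPAK KO arrays 1 to 4, and 10.10, 10.21, 10.24 and 9.98 on WT arrays 1 to 4. Of the SPAK KO values 3 lay inside the WT range, and WT 4 was the lowest array. The difference was 0.06 ± 0.06 (95% interval −0.08 to 0.20; adjusted p = 0.641), and it was 0.0088 without WT 4.

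Ace encodes angiotensin-converting enzyme, which also degrades bradykinin. Ace (probe set 10381962) read 10.71, 10.60, 10.58 and 10.61 in SPAK KO, and 10.53, 10.45, 10.54 and 10.79 in WT. All 4 SPAK KO arrays lay inside the WT range, which WT 4 set at the top. The difference was 0.05 ± 0.07 (95% interval −0.11 to 0.21; adjusted p = 0.740), and it was 0.0079 without WT 2 and 0.12 without WT 4.

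Agtr1a encodes the type 1a receptor, the main angiotensin II receptor of the mouse kidney. Agtr1a (probe set 10404376) read 10.80, 10.62, 10.62 and 10.65 in SPAK KO, and 10.60, 10.81, 10.82 and 10.66 in WT, so here too the SPAK KO arrays lay within the WT range. WT 2 and WT 3 were its highest arrays. The difference of −0.05 ± 0.07 (95% interval −0.20 to 0.10; adjusted p = 0.712) was the only one below 0 among the 8 genes, and it became 0.0069 with arrays centred on their median.

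Besides Ace, Mme and Enpep encode peptidases of the group. Mme encodes neprilysin, a brush border enzyme that cleaves angiotensin I to angiotensin-(1-7) and also degrades natriuretic peptides and bradykinin. Mme (probe set 10492355) read 10.00, 10.06, 10.11 and 10.19 in SPAK KO, and 9.63, 9.50, 9.56 and 9.79 in WT. The lowest SPAK KO array exceeded the highest WT array, WT 4, by 0.21. The mean was 10.1 in SPAK KO and 9.65 ± 0.13 in WT (SD, n = 3), and the difference was 0.47 ± 0.07, or 1.38-fold (95% interval 1.24- to 1.54-fold; adjusted p = 0.00949). By size, 142 of the 19938 genes had a larger difference upward, and the median size among called genes was 0.38.

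Enpep encodes aminopeptidase A, which shortens angiotensin II to angiotensin III. Enpep (probe set 10502081) read 10.94, 10.93, 10.90 and 10.93 in SPAK KO, and 10.79, 10.78, 10.86 and 10.87 in WT. Every SPAK KO array lay above every WT array, but the gap between the nearest arrays was 0.02 and the gene did not pass (difference 0.10 ± 0.05, or 1.07-fold; 95% interval −0.0048 to 0.20; adjusted p = 0.283). The difference of Mme exceeded that of Enpep by 0.37, taken as Mme minus Enpep on each array, which gave −0.94 to −0.74 in SPAK KO and −1.29 to −1.09 in WT.

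Nos1, Ptgs2 and Ptges are the signal-producing genes of the macula densa in this group. Nos1 encodes neuronal nitric oxide synthase, which in the cortex is concentrated in macula densa cells. Nos1 (probe set 10524909) read 5.91, 5.94, 5.90 and 5.90 in SPAK KO, and 5.92, 5.97, 5.59 and 5.88 in WT. The difference of 0.07 ± 0.08 (95% interval −0.10 to 0.24; adjusted p = 0.654) rested on WT 3: without that array it was −0.01. WT 2 and WT 3, which agreed for most genes, thus lay at the 2 ends of the WT range for Nos1.

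Ptgs2 encodes cyclooxygenase-2, the inducible enzyme whose macula densa expression increases with salt restriction. Ptgs2 (probe set 10350516) read 5.39, 5.33, 5.25 and 5.03 in SPAK KO, and 5.11, 5.26, 5.25 and 4.88 in WT. Replicate 4 was the lowest array in both groups, and 2 SPAK KO arrays lay inside the WT range and 2 above it. The difference was 0.13 ± 0.10 (95% interval −0.09 to 0.35; adjusted p = 0.514), and it was 0.05 without WT 4 and 0.20 without SPAK KO 4. Nos1 and Ptgs2 had means under 6, and no detection call comes with these values.

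Ptges encodes the microsomal prostaglandin E synthase that acts downstream of cyclooxygenase-2. Ptges (probe set 10481518) read 8.75, 8.67, 8.68 and 8.66 in SPAK KO, and 8.62, 8.45, 8.45 and 8.67 in WT. Here 3 SPAK KO arrays lay above the WT range and SPAK KO 4 lay just under WT 4. The difference was 0.15 ± 0.06, or 1.11-fold (95% interval 0.0076 to 0.28 on the log2 scale), and did not pass (unadjusted p = 0.0406, limma adjusted p = 0.24), at an unadjusted level that 19.1% of all genes reached.

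**Figure D2:**
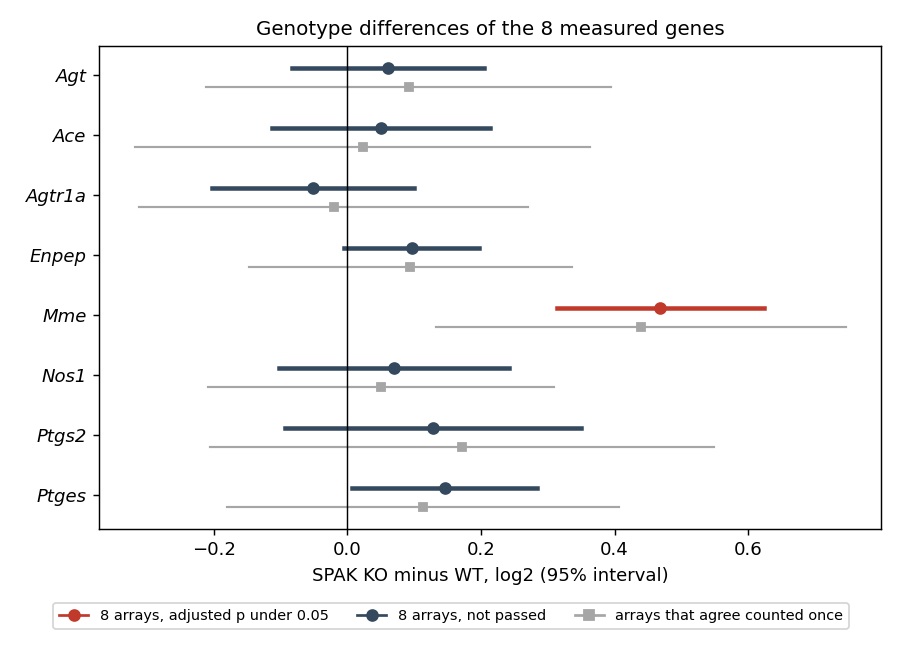
SPAK KO minus WT differences on the log2 scale (horizontal axis) of the 8 genes with 95% intervals, from all 8 arrays (thick lines) and with arrays that agree counted once (thin grey lines). Mme, at 0.47, is the gene whose interval lies clear of 0 in both. The intervals widen for every gene when agreeing arrays are counted once. They are not adjusted for the number of genes tested, and Mme was not called with agreeing arrays counted once.

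For the 7 genes that did not pass, the 95% intervals together reached from 0.869-fold (Agtr1a) to 1.27-fold (Ptgs2). These intervals assume 8 separate samples. With WT 2 and WT 3 averaged and the 4 SPAK KO arrays averaged, so that the single SPAK KO sample is assumed to vary like WT, the interval of Ptgs2 ran from −0.21 to 0.55 on the log2 scale and that of Mme from 0.13 to 0.75. Mme differed by 0.44 in that limma fit, in which 0 of 19938 genes were called and 618, or 3.10%, had an unadjusted p under 0.05. All 8 genes had a narrower range on the SPAK KO arrays than on the WT arrays (median range 0.12 in SPAK KO and 0.27 in WT), as did 64.0% of all genes.

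The 3 genes with the widest range over the 8 arrays were Mme, Ptgs2 and Nos1, and the genes nearest to each in pattern were found by the root mean square (RMS) difference of values centred on each gene's mean. Nearest to Mme were Erbb4, a receptor for neuregulins, Ppic, a peptidyl-prolyl isomerase, and Ehf, an epithelial transcription factor, with RMS differences of 0.05, 0.06 and 0.06. Their own differences were 0.45 ± 0.07, 0.53 ± 0.08 and 0.39 ± 0.06. Like Mme, all 3 had WT 4 as the highest WT array and SPAK KO 4 as the highest SPAK KO array. Both the differences and the order of arrays follow from how these genes were chosen. Nearest to Ptgs2 were Cdc26, Pik3ip1 and Snord15b (RMS 0.08 each), and nearest to Nos1 were Fam81a, Inava and Rrs1 (RMS 0.05 to 0.06).

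**Figure D3:**
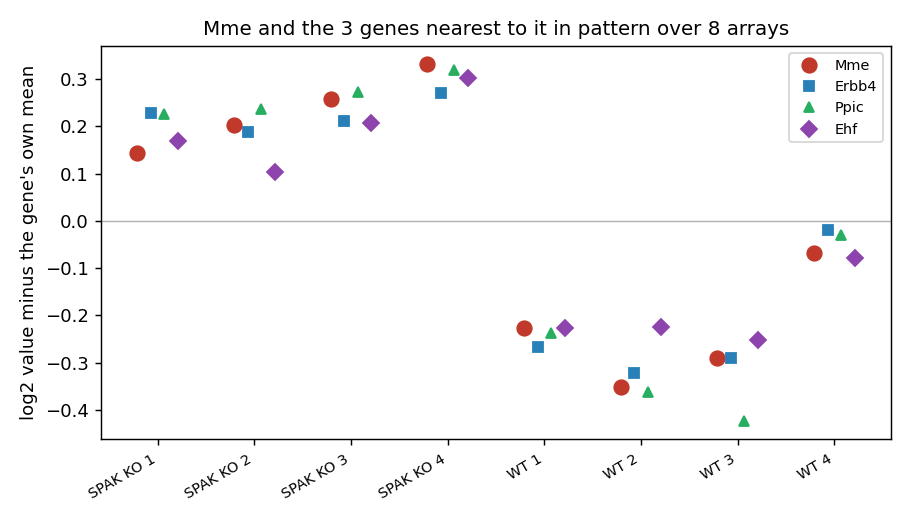
Log2 values of Mme and of the 3 genes nearest to it, each minus the gene's own mean over the 8 arrays (vertical axis), by array (horizontal axis). In each of the 4 genes the SPAK KO arrays lie above the WT arrays, and WT 4 is the highest WT array.

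Other genes of the angiotensin and kinin pathway showed no call over the 8 arrays with values as deposited. Of 16 measured genes out of 20 listed, 0 were higher and 0 lower by limma's adjusted p, beside 1.39% and 0.682% of all genes. In limma 5 of the 16 had an unadjusted p under 0.05, beside 19.1% of all genes. The median difference of the 16 was −0.02. Ece1, which encodes endothelin-converting enzyme, had the smallest p, with 9.79 to 9.85 in SPAK KO and 9.47 to 9.66 in WT and a difference of 0.24 ± 0.06 (adjusted p = 0.0612). Ece1 passed in 6 of 21 alternative settings, with limma adjusted p of 0.0148 with a variance trend and robust variances to 0.0404 without WT 4. Mas1, the receptor for angiotensin-(1-7), read 5.07 to 5.23 in SPAK KO and 5.24 to 5.58 in WT, a difference of −0.24 ± 0.07 (adjusted p = 0.123). These Mas1 values were under 6, like those of Nos1 and Ptgs2, and come without a detection call. Anpep, the brush border aminopeptidase N that acts after aminopeptidase A, differed by −0.07 ± 0.07, and Atp6ap2, the (pro)renin receptor, by 0.08 ± 0.04.

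Of 13 measured genes of the macula densa and tubuloglomerular feedback, 1 was higher and 0 lower (median 0.05), beside 1.39% and 0.682% of all genes. Casr, the calcium-sensing receptor, read 9.59 to 9.69 in SPAK KO and 9.28 to 9.47 in WT, and rose by 0.31 ± 0.06 (adjusted p = 0.0224). That call held without WT 1 or WT 4, and leaving out any of the other 6 arrays gave an adjusted p of 0.0501 to 0.0782. Slc12a1, the Na-K-2Cl cotransporter through which macula densa cells sense salt, differed by 0.24 ± 0.05 and did not pass (limma adjusted p = 0.0520). It passed without WT 4 (0.0197), and leaving out any other single array gave a limma adjusted p of 0.0858 to 0.134. Slc12a1 and Kcnj1 are also counted among the thick ascending limb markers below. Values from whole cortex do not show which cells the rise of Casr came from. Pappa2 and Robo2, genes enriched in macula densa cells, differed by −0.02 ± 0.08 and 0.05 ± 0.07. Pappa2 read 5.19 to 5.58 in SPAK KO and 5.31 to 5.44 in WT, under 6 like Nos1 and Ptgs2 and without a detection call.

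Of 14 measured genes of juxtaglomerular cells and renin regulation, 1 was higher and 0 lower (median 0.05), again beside 1.39% and 0.682% of all genes. Rgs5, a regulator of G protein signalling found in pericytes and vascular smooth muscle, read 7.19 to 7.32 in SPAK KO and 6.80 to 7.08 in WT. It rose by 0.32 ± 0.07 (adjusted p = 0.0377), a call that held without WT 4 (0.0152) and was lost without any other single array (adjusted p = 0.0654 to 0.123). Gja5, the connexin that couples renin cells, differed by 0.19 ± 0.07 (adjusted p = 0.184), and Adcy6, an adenylyl cyclase, by 0.24 ± 0.06 (adjusted p = 0.0772). Adcy6 passed without WT 4 (limma adjusted p = 0.0447) but not without any other single array (0.0881 to 0.193).

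Around Ptgs2 and Ptges, 0 of 17 measured genes of prostaglandin synthesis, transport and reception were called in either direction (median 0.02). In limma 6 of these 17 had an unadjusted p under 0.05, beside 19.1% of all genes. The smallest p belonged to Ptgfr, the prostaglandin F receptor, at −0.17 ± 0.05 (adjusted p = 0.12), and to Slco2a1, the prostaglandin uptake transporter, at 0.17 ± 0.05 (adjusted p = 0.126). Slco2a1 passed without WT 1 (limma adjusted p = 0.0498) but not without any other single array (0.156 to 0.255). Around Nos1, 0 of 16 measured genes of nitric oxide and cGMP signalling were called (median 0.06). In limma 3 of these 16 had an unadjusted p under 0.05, near the 19.1% of all genes. Arg2, an arginase that competes with nitric oxide synthases for arginine, read 6.29 to 6.41 in SPAK KO and 5.62 to 6.22 in WT. Its difference was 0.41 ± 0.11 (adjusted p = 0.0864). Arg2 passed without WT 1 (limma adjusted p = 0.0303) but not without any other single array (0.0706 to 0.211). Nosip, a protein that binds nitric oxide synthase, differed by 0.17 ± 0.06 (adjusted p = 0.152), and the endothelial synthase gene Nos3 by 0.04 ± 0.06.

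**Figure D4:**
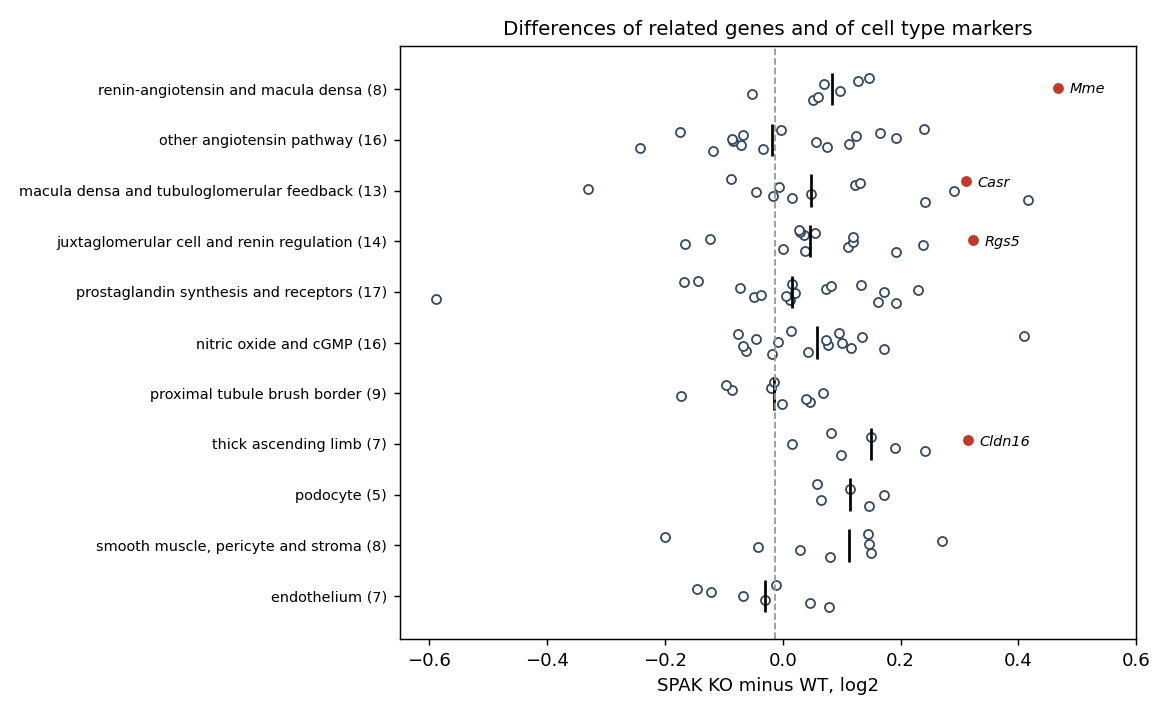
SPAK KO minus WT differences on the log2 scale (horizontal axis) for the 8 genes, the related gene lists and 5 lists of cell type markers, with the number of measured genes in brackets. Filled points passed an adjusted p of 0.05, short black lines are list medians, and the dashed line is the median of all genes, −0.01; Mme, at 0.47, is the point farthest to the right.

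Markers of the cells that carry these genes were set beside them. The counts of marker calls stand beside 1.39% of all genes called higher and 0.682% called lower. Of 9 measured proximal tubule brush border markers, where neprilysin, aminopeptidase A and angiotensin-converting enzyme also sit, 0 were called, the median was −0.01, and the mean of their values was 11.6 on each SPAK KO array and 11.6 to 11.7 on the WT arrays. Of 7 thick ascending limb markers, 1 was higher, the claudin gene Cldn16 at 0.32 ± 0.05 (limma adjusted p = 0.00854). The mean of the 7 was 10.70 to 10.75 in SPAK KO and 10.51 to 10.60 in WT. All 7 differences lay above 0 (median 0.15), against 45.8% of all genes. Of 5 podocyte markers 0 were called, with a mean of 7.88 to 7.98 in SPAK KO and 7.76 to 7.86 in WT. Of 8 markers of smooth muscle, pericytes and stroma 0 were called, with means of 7.96 to 8.04 in SPAK KO and 7.87 to 8.01 in WT. As a check of the tissue, Slc34a1, the phosphate transporter of the cortical proximal tubule, averaged 13.8 in SPAK KO and 13.8 ± 0.03 in WT (SD, n = 3). The mean of 5 adrenal markers was 4.5 to 4.6 in SPAK KO and 4.6 to 4.7 in WT. The mean of 6 nerve markers was 4.9 to 5.0 in SPAK KO and 4.9 to 5.1 in WT. Of these, 0 of 5 adrenal and 0 of 6 nerve markers were called between the genotypes, which does not bear on their presence. The list of 5 medulla markers includes collecting duct genes. Of the 5, 1 was higher and 1 lower, and their mean was 7.66 to 7.76 in SPAK KO and 7.68 to 7.77 in WT. Neither the calls nor that mean shows how much medulla the samples held. Cldn4, a claudin of the collecting duct, rose by 0.47 ± 0.07 (limma adjusted p = 0.00797). Aqp2, the water channel of the collecting duct, fell by 0.29 (limma adjusted p = 0.0447), a call that held without WT 4 (0.0174) and was lost without any other single array (adjusted p = 0.0623 to 0.124). Slc14a2, a urea transporter, was lower on every SPAK KO array than on any WT array, as were 5.71% of all genes. It did not pass the test (−0.21 ± 0.05, limma adjusted p = 0.0821). Its values were dim, at 5.25 to 5.35 in SPAK KO and 5.45 to 5.63 in WT. Of 8 immune markers, 0 were higher and 1 lower, 4 differences lay above 0, the median was −0.02, and the mean was 6.47 to 6.52 in SPAK KO and 6.50 to 6.56 in WT. The lower one was the T cell gene Cd3e, which fell by 0.31 (limma adjusted p = 0.0443). With each of the 8 arrays dropped in turn, Cd3e was called once (1 of 8), with limma adjusted p of 0.0257 to 0.117.

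Relative to the mean of each marker list on the same array, the difference of Mme was 0.49 against the brush border list, 0.36 against the podocyte list, 0.40 against the smooth muscle, pericyte and stroma list and 0.50 against the 7 endothelial markers. In each of these 4 the SPAK KO arrays lay above the WT arrays without overlap. The means of the 4 lists themselves differed by only −0.04 (endothelium) to 0.11 (podocyte), so taking them off could change little of a difference of 0.47. The thick ascending limb list, whose mean differed by 0.16, was not among the 4. The part of cell numbers in the difference of Mme was not tested. The part of the thick ascending limb and podocyte markers in the differences of Nos1, Ptgs2, Ptges and Casr was not tested.

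The Mme call held in every setting but 1, and each setting that kept it counted the SPAK KO arrays as separate samples. Those settings therefore do not bear on whether these arrays are separate samples. It passed in 20 of 21 alternative settings, including all 8 leave-one-out fits (0.43 to 0.52, adjusted p = 0.00392 to 0.038), and failed where arrays that agree were counted once. None of the other 7 genes passed in any setting that gave it a value, and Ptges came nearest (lowest limma adjusted p = 0.0853).

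**Figure D5:**
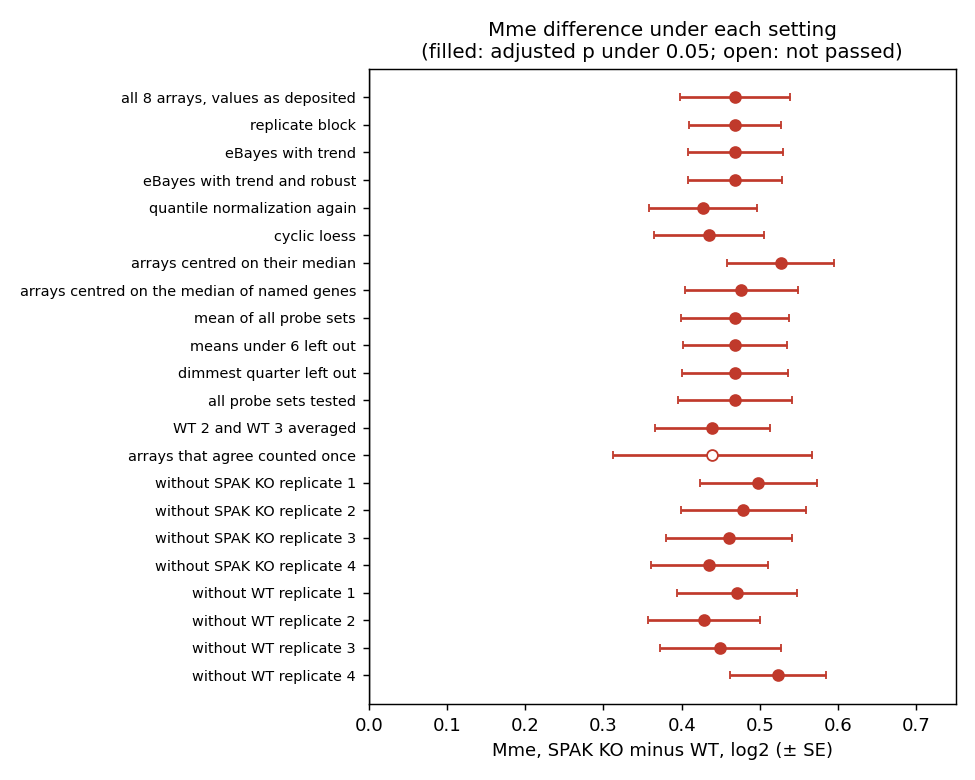
Difference of Mme, SPAK KO minus WT on the log2 scale with its SE (horizontal axis), for all 8 arrays with values as deposited (top) and under each of 21 alternative settings. The values lie between 0.43 and 0.53, and the open point, with arrays that agree counted once, is the setting in which the gene did not pass.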

How the data were processed

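Per the submitters' processing notes, the authors made the deposited log2 values by RMA, using Affymetrix Expression Console. The version, filters and genome build are not given in the sources used here, so no coordinates are printed. The table held 35556 probe sets on 8 arrays. Genes were named from the platform annotation where a probe set had 1 symbol (21789 probe sets; 1621 had several and 12146 none), and the probe set with the highest mean was used for each of 19938 genes. RMA pulls arrays to one distribution, so values are relative to the other genes.

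Genotype was the only term of a linear model (limma 3.58.1, R 4.3.3; lmFit and eBayes) over all genes and 8 arrays. A gene was called at a Benjamini-Hochberg adjusted p under 0.05. The fit was tested on simulated data in which all arrays were independent, so that test does not bear on the close agreement of arrays described above. The number of separate samples limits the precision. The labels do not pair the mice. The 9 genes and all lists were chosen with earlier results of these data known. The rule for named genes took the 9, up to 4 called genes of each related list (or else the 2 with the smallest p), Stk39, and the 3 genes with a mean of at least 7 nearest in pattern to each of the 3 widest-ranging. Other genes were named after their values were seen. Alternatives changed the variance model, normalization, filter, probe sets and arrays used.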

Additional observations from a re-analysis of the deposited data

Results flagged for a closer look

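One value stood apart from the others of its group. Ptgfr read 8.08 on SPAK KO 3, against 7.997 to 8.001 on the other 3 SPAK KO arrays, a gap of 0.958 of the group's range, above Dixon's 95% critical value of 0.829 for 4 samples. It was 1 of 34 groups examined over 17 genes, and chance marks about 1 in 20 such groups.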

How the results depend on the processing

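The counts over all genes, 278 higher and 136 lower, depended on the processing. The number of the 8 genes called changed in 1 of 21 settings, their median difference moved in another, and the sign of Agtr1a and of Nos1 turned in 1 setting each. Higher and lower calls were 527 and 237 with a variance trend, 526 and 241 with a trend and robust variances, 175 and 78 with WT 2 and WT 3 averaged, and 673 and 88 with arrays centred on their median, where 88.4% of calls were higher instead of 67.1%. There were 462 higher calls with means under 6 left out and 152 with all probe sets tested. Leaving out 1 array gave 106 to 407 higher and 50 to 218 lower calls. With the replicate number as a block there were 129 higher and 45 lower. The labels do not pair the mice, so the numbers were not taken as pairs. Same-numbered arrays correlated in their deviations at −0.065 to 0.192, and differently numbered SPAK KO and WT arrays at −0.228 to 0.173. With SPAK KO arrays as alike as described above, these correlations cannot decide on pairing. Mme passed with the block (limma adjusted p = 0.0241).

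With arrays that agree counted once, 0 genes were called higher and 0 lower (limma; 618 at an unadjusted p under 0.05), so 0 of the 8 genes were called instead of 1. The smallest adjusted p was 0.0583, and a fit with 3 WT samples and 1 SPAK KO sample has few degrees of freedom. The median difference of the 8 genes, 0.08, was 0.14 with arrays centred on their median, a setting that shifts all differences by 0.06 and in which Agtr1a became 0.0069. Leaving out 1 array moved Nos1 between −0.0125 (without WT 3) and 0.1138 (without WT 2). Among the related genes Casr lost its call in 10 settings and Rgs5 in 11, among them the block, all probe sets tested and WT 2 and WT 3 averaged. Ece1 gained one in 6 settings, Arg2 in 3 and Slco2a1 in 2, among them arrays centred on their median for all 3; the cause was not tested. Nos1, Ptgs2 and Mas1 give no value where means under 6 are left out.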

Other observations

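Among the related lists, some of the widest differences did not pass the test. The 3 given here were picked with their values in view. Slc9a2, a sodium-proton exchanger found in macula densa cells, read 8.97, 9.01, 8.87 and 8.97 in SPAK KO, and 8.78, 8.24, 8.30 and 8.84 in WT, a difference of 0.42 ± 0.13 (limma adjusted p = 0.129). WT 2 and WT 3 lay well below the other WT arrays. Nt5e, the ectonucleotidase that forms the adenosine of tubuloglomerular feedback, read 9.51, 9.38, 9.36 and 9.37 in SPAK KO, and 9.87, 9.56, 9.61 and 9.92 in WT, a difference of −0.33 ± 0.09 (limma adjusted p = 0.0842). Every SPAK KO array lay below every WT array, as for 5.71% of all genes, and WT 2 and WT 3 were the lowest WT arrays. The difference stayed between −0.39 and −0.27 with any single array left out. Nt5e passed in none of these fits (limma adjusted p = 0.0678 to 0.195).

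Ptgds, a prostaglandin D synthase, read 7.31, 7.34, 7.27 and 7.13 in SPAK KO, and 8.81, 7.59, 7.79 and 7.22 in WT, where WT 1 alone was above 8. Its difference was −0.59 ± 0.27 (limma adjusted p = 0.265), and −0.27 without WT 1 (limma adjusted p = 0.29).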
